A study of Rattus norvegicus with 16 samples.

Results

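The genes described here are the cytochrome P450 superfamily outside the Cyp4a subfamily, measured in rat kidney cortex. Members were the array probes whose gene name in the scanner files began with Cyp and a digit. Cyp4a names, the vitamin D enzymes Cyp27b1 and Cyp24a1 and the sterol synthesis enzyme Cyp51 were left out, and a probe was kept where its spot was well above background on at least 2 of the 16 arrays. These were 46 of the 104 probes with such names, among 45598 probes in all, and they stood for 38 of 75 P450 gene names. A signal above background is therefore what chose the members, and their detection is no finding.

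P450 enzymes are heme proteins that insert an oxygen atom into their substrates. Those of the endoplasmic reticulum take electrons from P450 oxidoreductase, and those of mitochondria take them from ferredoxin. In the kidney cortex many of them belong to the proximal tubule, where they turn arachidonic acid into epoxy and hydroxy fatty acids that act on vessel tone and salt transport, and where they oxidise drugs and solvents.

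The cortex came from male Sprague-Dawley rats of the Jcl:SD stock, either wild-type or BRCA1+/- (called heterozygous below). BRCA1 acts in DNA repair, and the labels do not name the BRCA1 allele the rats carried. Fe-NTA (ferric nitrilotriacetate), an iron chelate that injures the proximal tubule through iron-driven oxidation, was injected into the peritoneum from 4 weeks of age. The first 2 injections held 5 mg iron per kg and the last 3 of week 1 held 7 mg iron per kg. Rats treated for 3 weeks went on with 10 mg iron per kg 5 times a week, and 48 h passed between the final injection and sampling. There were 2 arrays of normal control cortex per genotype, 3 after 1 week of Fe-NTA and 3 after 3 weeks. The age of the control rats, and whether they were injected with a vehicle, are not given, and the rats of the 3-week groups were older and had received larger doses. Treatment, dose and age therefore cannot be told apart. The labels do not say that each array held a different rat, so that the p-values may reflect technical spread alone.

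Each value below is a scaled log2 signal, the log2 of the processed spot signal minus the 75th percentile of its array, so that 0 is that percentile and a step of 1 is a 2-fold difference. Levels are compared only within a probe. Per array, 32.8% to 60.5% of probes were well above background, and 0 spots were saturated. Arrays of the same group correlated over probes with r between 0.964 and 0.981, except for the third wild-type 1-week array, for which r was 0.905 and 0.908. The array with the largest share of probes above background, the third of the wild-type 3-week group, was above background for 9 of the 12 member probes that were above background on at most 5 arrays. Both slides held arrays of all 6 groups. The tissue label fits its markers in that all 12 proximal tubule markers passed the filter, as did 6 of 7 of the thick limb and distal tubule and 7 of 7 of the collecting duct.

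At the edge of the detection rule, Cyp17a1 was above background on exactly 2 arrays, the first and the third of the wild-type 3-week group, at -1.45 and -2.12. A second probe of Cyp2d4 was also above background on 2 arrays, the first heterozygous control at -2.27 and the third wild-type 3-week array at -1.04. Just outside the rule, 10 probes were above background on 1 array, and the other 48 probes with P450 names were above background on none. Among the latter were the probe of Cyp1a1, the classic target of the aryl hydrocarbon receptor, and both probes of Cyp1a2. They also included further probes of the member genes Cyp11a1, Cyp11b2, Cyp2ab1, Cyp2c7, Cyp2g1 and Cyp39a1. Detection of these genes thus rests on their member probes. Of the 38 member genes, 14 were above background on all 16 arrays, 11 on 13 to 15 arrays and 13 on 2 to 11 arrays.

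A gene was tested with limma where each array of some group read a member probe well above background, and was called at an adjusted p under 0.05 over all 16024 genes tested. This left 31 P450 genes. Cyp11b2, Cyp17a1, Cyp26c1, Cyp2j3, Cyp3a85-ps, Cyp3a9 and Cyp4f17 were not tested. In wild-type cortex after 1 week of Fe-NTA, 12 of the 31 P450 genes (38.7%) were called against 27.1% of all genes. Of these 12, 9 were lower and 3 were higher, and over all genes 14.3% were called lower and 12.8% higher. Cyp2d1 and Cyp2d5, both among the 9, are counted as separate genes although their probes share most of their sequence and cannot be told apart. After 3 weeks 5 of 31 (16.1%) were called in wild-type cortex, close to the 14.2% of all genes, with 3 higher and 2 lower against 8.71% and 5.51% of all genes. In heterozygous cortex 7 of 31 (22.6%) were called after 1 week against 7.47% of all genes, with 3 higher and 4 lower against 4.27% and 3.2% of all genes. After 3 weeks 6 of 31 (19.4%) were called against 15.9% of all genes, with 4 higher and 2 lower against 9.37% and 6.52% of all genes.

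The median log2 change of the 31 genes against control was -0.25 in wild-type cortex at 1 week, -0.10 in wild-type cortex at 3 weeks, -0.40 in heterozygous cortex at 1 week and -0.56 in heterozygous cortex at 3 weeks. Over all genes these medians were -0.02, -0.02, -0.03 and 0.01. These counts and medians are descriptions, because a gene that passed the detection filter only through the group in which it was high had to differ. The 1-week and 3-week changes of a genotype share its 2 control arrays. Each slide held 1 control array per genotype, whose spread is taken from the groups with more arrays on that slide. Within slide 1 alone the 4 comparisons called 5, 1, 1 and 1 P450 genes, in the same order, and within slide 2 alone 5, 0, 2 and 4.

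The counts also moved with single arrays. Without the third wild-type 1-week array they were 14, 12, 10 and 11. The wild-type 3-week count was 3 without either wild-type control, or without the second or the third array of that group. The heterozygous 1-week count was 3 without either heterozygous control and 4 without the first array of that group, and the heterozygous 3-week count was 2 without the second heterozygous control. With normexp background correction the 4 counts were 4, 2, 3 and 4. This setting used the mean spot signal and the local background, with an offset of 50 added. The 75th percentile of the processed signal lay between 20.1 and 78.5 on the arrays. An offset of that size by itself shrinks the changes of dim probes. A call lost under normexp therefore does not show that a dim gene was unchanged. In wild-type cortex the calls made both with normexp and with the processed signals were Cyp2c23, Cyp2e1, Cyp4f1 and Cyp26b1 at 1 week and Cyp27a1 and Cyp2c24 at 3 weeks. In heterozygous cortex they were Cyp26b1 and Cyp2d5 at 1 week and Cyp27a1 alone at 3 weeks, where 1 of the 4 calls under normexp was higher and 3 were lower. The other heterozygous calls under normexp were falls of Cyp2d1 at 1 week and of Cyp2d1, Cyp2d5 and Cyp2e1 at 3 weeks.

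**Figure D1:**
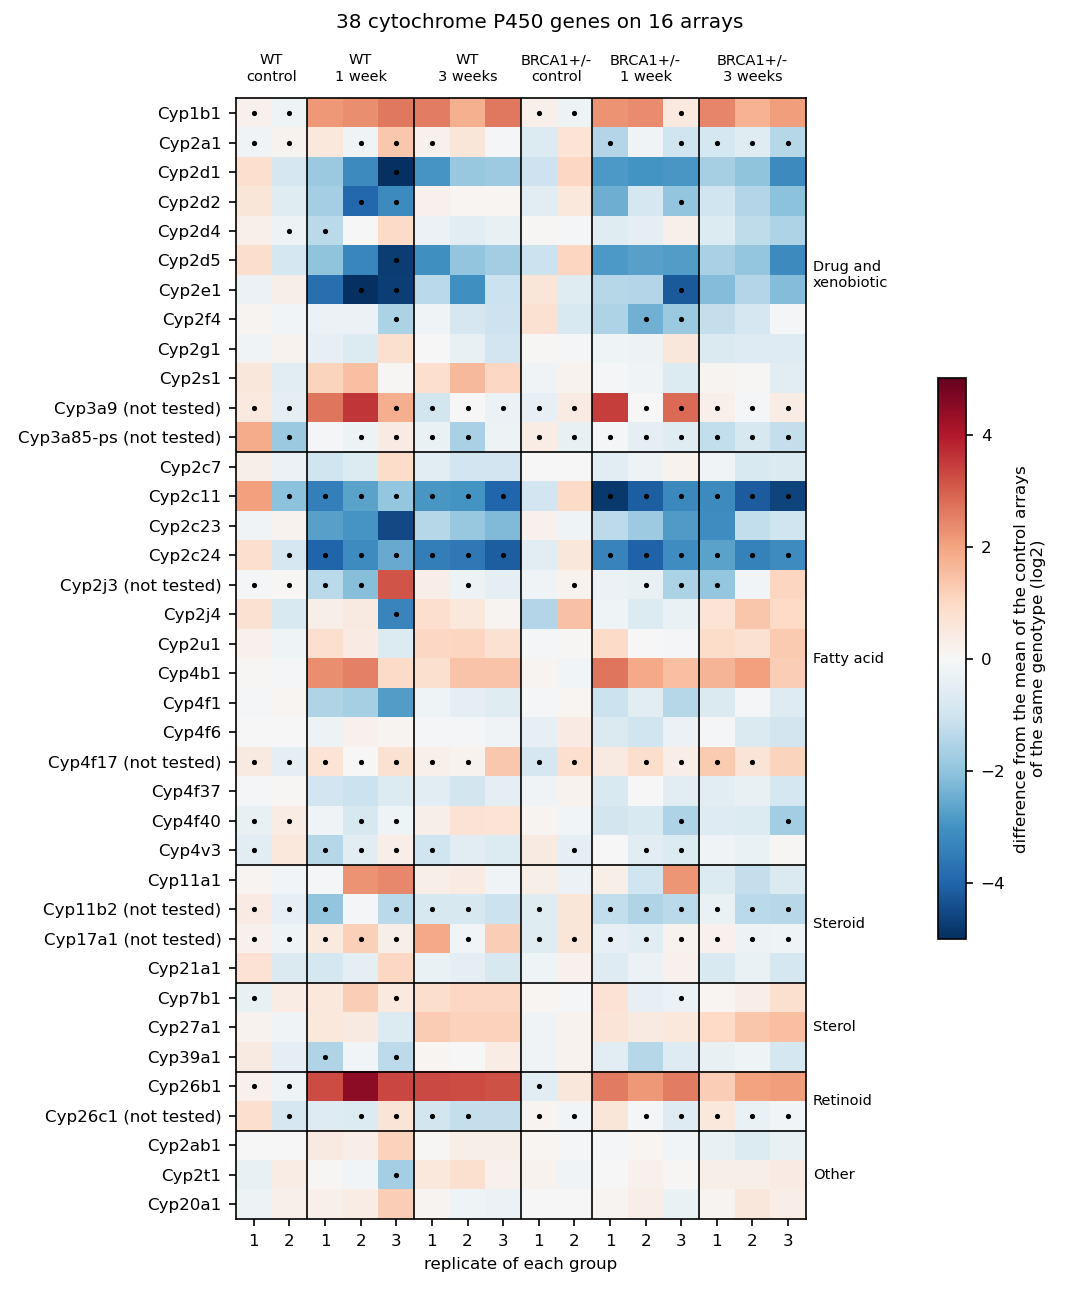
Each row is 1 of the 38 P450 genes, grouped by role, and each column is 1 of the 16 arrays; colour gives the difference in scaled log2 signal from the mean of the 2 control arrays of the same genotype, and a dot marks a probe not well above background on that array. Cyp2c23, Cyp2e1, Cyp2d1 and Cyp2d5 are blue on all 12 treated arrays, and Cyp26b1 and Cyp4b1 are red on all 12.

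Genes of arachidonic and other fatty acid oxidation held 5 of the 9 lower calls in wild-type cortex at 1 week. Of 14 member genes in this role 12 were tested, so that 5 of 12 fell and 1 rose, where 14.3% of all genes were called lower, with a median log2 change of -0.70 against -0.02 over all genes. No difference between roles was tested. At 3 weeks in wild-type cortex 2 fell and 0 rose, against 5.51% and 8.71% of all genes. In heterozygous cortex 2 fell and 1 rose at 1 week, and again at 3 weeks. Over all genes 3.2% and 6.52% were called lower there, and 4.27% and 9.37% higher. The 2 that fell there at both times were Cyp2c11 and Cyp2c24. Both passed the detection filter through the heterozygous controls alone, so that these 2 falls are a description and no result about the role.

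Cyp2c23, the main arachidonic acid epoxygenase of the rat kidney, read 8.71 and 9.07 in the wild-type controls, 6.16, 5.95 and 4.36 after 1 week and 7.48, 6.99 and 6.70 after 3 weeks. All 6 treated arrays lay below both controls, and the 1-week arrays lay below the 3-week arrays. Cyp2c23 fell by 3.40 ± 0.62 (log2 change ± SE from limma, here and below, with Benjamini-Hochberg adjusted p) at 1 week, a 10.6-fold difference (adjusted p = 0.001), and its change at 3 weeks was -1.84 (adjusted p = 0.062). In heterozygous rats it read 9.04 and 8.61 in the controls, 7.51, 6.99 and 5.99 after 1 week and 5.73, 7.6 and 7.82 after 3 weeks. These treated arrays also lay below both controls, with changes of -2.0 at 1 week (adjusted p = 0.066) and -1.78 at 3 weeks (adjusted p = 0.064), neither of which was called. Within slide 1 and slide 2 the wild-type 1-week change of Cyp2c23 was -3.81 and -2.76. Without the third wild-type 1-week array the other 3 changes of Cyp2c23 were each called, at an adjusted p of 0.03.

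Cyp4f1 belongs to the fatty acid omega-hydroxylases, which make hydroxy fatty acids such as 20-HETE and break down leukotrienes. It read 4.63 and 4.83 in the wild-type controls, 3.24, 3.07 and 1.94 after 1 week and 4.50, 4.25 and 4.13 after 3 weeks. The 1-week arrays stood apart from the others, and the 3-week arrays lay just under the controls. Cyp4f1 fell by 1.98 ± 0.37 at 1 week (adjusted p = 0.0011), while its 3-week change was -0.44 (adjusted p = 0.47). In heterozygous cortex the controls read 4.66 and 4.82, the 1-week arrays 3.66, 4.19 and 3.32 and the 3-week arrays 4.00, 4.65 and 4.11, with changes of -1.02 (adjusted p = 0.11) and -0.49 (adjusted p = 0.36). The neighbouring family member Cyp4f37 fell by 0.91 ± 0.28 in wild-type cortex at 1 week (adjusted p = 0.025), from 1.97 and 2.11 to 1.07, 0.95 and 1.37. This call of Cyp4f37 was lost without either wild-type control or without the first or second 1-week array (adjusted p from 0.053 to 0.15). Cyp4f6, of the same subfamily, gave a change of 0.02 at 1 week in wild-type cortex, with a 95% interval of -0.65 to 0.69, and was called in no comparison. Its second probe shares a run of 54 bases with the first. Cyp4f40 changed by -1.08 and -1.02 in heterozygous cortex at 1 and 3 weeks, without a call (adjusted p = 0.094 and 0.076). Cyp4v3, a fatty acid hydroxylase, and Cyp2c7, a liver P450 whose member probe ranged from 2.69 to 4.60, were called in no comparison. The other probes of Cyp2c7 were above background on at most 1 array, so that the level of this gene is uncertain. Cyp4f17 was above background on 3 arrays and was not tested.

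Cyp2c11, the male-specific P450 of rat liver, which oxidises testosterone and arachidonic acid, and its relative Cyp2c24 were above background in control cortex alone. Cyp2c24 read 0.31 in the first wild-type control and -0.98 and 0.12 in the heterozygous controls. In the second wild-type control it was not well above background, at -1.39, and the 12 treated arrays, none of them well above background, lay between -4.68 and -3.06. The groups did not overlap. Against the detection limit of the treated arrays Cyp2c24 was at least 2.91-fold lower in wild-type cortex at 1 week (adjusted p = 0.00039) and at least 4.44-fold lower at 3 weeks (adjusted p = 0.00043). In heterozygous cortex it was at least 4.70-fold lower at 1 week (adjusted p = 0.0011) and at least 5.44-fold lower at 3 weeks (adjusted p = 0.0016). Here and below, the adjusted p beside a bound belongs to the fitted log2 change and does not test the bound itself. The wild-type 1-week call was lost when dim readings were raised to the detection limit (-1.54, adjusted p = 0.078), and the calls at 1 week and the heterozygous 3-week call were lost with normexp background correction (adjusted p from 0.064 to 0.073).

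Cyp2c11 read 0.67 and -3.46 in the wild-type controls, the second not well above background, and -1.54 and 0.37 in the heterozygous controls. No treated array was well above background, and their readings ran from -5.41 to -3.33. In wild-type cortex the second control overlapped the 1-week arrays, so that the fall of at least 1.61-fold (adjusted p = 0.043) rested on the first control, without which the change of Cyp2c11 was -0.62 (adjusted p = 0.67). It was also lost without the first or second wild-type 1-week array (adjusted p = 0.12 and 0.074), and narrowly missed the threshold without the first or second wild-type 3-week array, the second heterozygous 1-week array or the second heterozygous 3-week array (adjusted p from 0.052 to 0.054). The bounds were 2.46-fold lower at 3 weeks in wild-type cortex (adjusted p = 0.028), 4.23-fold lower at 1 week in heterozygous cortex (adjusted p = 0.016) and 4.90-fold lower at 3 weeks (adjusted p = 0.011). The 3-week call was lost without the first wild-type control (-1.22, adjusted p = 0.41) or without the second or the third array of the group (adjusted p = 0.057 and 0.088). The heterozygous 1-week call was lost without the first array of its group (adjusted p = 0.057), and without the second heterozygous control both heterozygous calls were lost (-3.10, adjusted p = 0.18, and -3.04, adjusted p = 0.14). Cyp2c11 and Cyp2c24 passed the filter through the heterozygous controls alone, so that their falls in heterozygous cortex are a description, and the heterozygous counts of 7 and 6 called genes include both. Within slide 1 and slide 2 the wild-type 1-week change of Cyp2c11 was -0.62 and -4.74, and that of Cyp2c24 was -2.40 and -4.0. With normexp background correction no call of Cyp2c11 was made (adjusted p from 0.11 to 0.19). When dim readings were raised to the detection limit, its wild-type calls were lost at 1 week (-1.48, adjusted p = 0.16) and 3 weeks (-2.09, adjusted p = 0.07). So was its heterozygous 1-week call (-2.08, adjusted p = 0.087). Of 7 liver markers, listed because Cyp2c11 is a liver enzyme, Alb, Apoa1, Ttr, Serpina1, Tat and Ahsg did not pass the filter, and Fgb rose in all 4 comparisons.

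The Cyp2j genes, which encode further arachidonic acid epoxygenases, were not called. Cyp2j4 ranged from -0.25 to 2.66 over 15 arrays and was not well above background on the third wild-type 1-week array, at -2.32. Cyp2j3, which was not tested, gave its highest reading on that same array, 1.15, and lay between -4.19 and -1.17 elsewhere. Cyp2u1, which hydroxylates long-chain fatty acids, was read by 3 probes that disagreed in direction. The probe with the highest signal gave a log2 change of 0.96 at 3 weeks in wild-type cortex and 0.99 in heterozygous cortex, and the other probes gave -0.06 and -0.57 in wild-type and -0.80 and -0.61 in heterozygous cortex. None of these was called.

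Among genes of drug and xenobiotic oxidation, Cyp2e1 fell in wild-type cortex at 1 week, as did 3 genes of the Cyp2d subfamily. Of these 3, Cyp2d1 and Cyp2d5 cannot be told apart on this array. Of 12 member genes 10 were tested, and 4 of them fell and 1 rose in that comparison, where 14.3% of all genes were called lower and 12.8% higher. The median log2 change was -0.41, against -0.02 over all genes. In wild-type cortex at 3 weeks the median was -0.42, and 0 fell and 1 rose, against 5.51% and 8.71% of all genes. In heterozygous cortex the medians were -1.31 and -1.06 at 1 and 3 weeks, where 2 and 0 fell and 1 rose at each time. Over all genes 3.2% and 6.52% were called lower there, and 4.27% and 9.37% higher. The gene that rose in each comparison with control was Cyp1b1, which passed the detection filter through treated groups alone. Cyp2e1, which oxidises ethanol and small solvents and releases reactive oxygen while doing so, was read by a probe at chr1:200927736-200927795 (rn4, plus strand). The related Cyp2d2, of the subfamily that oxidises many basic drugs, was read by a probe at chr7:120798606-120798665 (rn4, minus strand). Both probes are shown because these genes changed at 1 week and again between 1 and 3 weeks in wild-type cortex.
Cyp2e1: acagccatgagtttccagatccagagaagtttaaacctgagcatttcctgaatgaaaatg
Cyp2d2: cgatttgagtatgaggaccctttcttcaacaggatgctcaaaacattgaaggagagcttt

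Cyp2e1 read 1.36 and 1.96 in the wild-type controls and -2.11, -3.80 and -3.06 after 1 week, where the last 2 arrays were not well above background. After 3 weeks it read 0.33, -1.41 and 0.60, between the controls and the 1-week arrays. Cyp2e1 fell by 4.65 ± 0.78 at 1 week (adjusted p = 0.00051). When dim readings were raised to the detection limit, the fall of Cyp2e1 was -3.49 (adjusted p = 0.0014), and its 3-week change was -1.82 (adjusted p = 0.13). In heterozygous cortex the controls read 2.82 and 1.64, the 1-week arrays 0.80, 0.77 and -1.98, the last not well above background, and the 3-week arrays 0.07, 0.78 and 0.07. The heterozygous treated arrays also lay below their controls, with changes of -2.37 (adjusted p = 0.079) and -1.93 (adjusted p = 0.10). The wild-type 1-week change of Cyp2e1 was -4.54 within slide 1 and -5.17 within slide 2.

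Cyp2d2 read 0.76 and -0.48 in the wild-type controls, -1.55, -3.80 and -3.05 after 1 week, the last 2 not well above background, and 0.35, 0.22 and 0.25 after 3 weeks. The 3-week arrays were back within the range of the controls. Cyp2d2 fell by 2.94 ± 0.60 at 1 week (adjusted p = 0.0023), or by 1.79 when dim readings were raised to that limit and by 0.60 with normexp correction, which ended the call (adjusted p = 0.076), and its 3-week change was 0.13 (adjusted p = 0.91). The heterozygous readings were -0.23 and 0.82 in the controls, -2.14, -0.55 and -1.67 after 1 week, the last not well above background, and -0.69, -1.18 and -1.75 after 3 weeks. The treated arrays lay below both controls, and neither change was called (-1.75, adjusted p = 0.093, and -1.50, adjusted p = 0.10). Both were called when dim readings were raised to the detection limit (adjusted p = 0.03 and 0.036). The wild-type 1-week change of Cyp2d2 was -1.83 within slide 1 and -4.56 within slide 2.

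Cyp2d1 and Cyp2d5 cannot be told apart on this array. Their probes, at chr7:120769703-120769762 and chr7:120760436-120760495 (rn4, minus strand), share an unbroken run of 55 of 60 bases. The last 30 bases of each probe are shown with the shared part in capitals.
Cyp2d1: CTGAGCCACGTTTAATAAACCAGTCTTttg
Cyp2d5: GAGCCACGTTTAATAAACCAGTCTTgaggc
Cyp2d1 read 4.29 and 2.58 in the wild-type controls, 1.56, 0.25 and -2.30 after 1 week, the last not well above background, and 0.50, 1.54 and 1.60 after 3 weeks. In heterozygous cortex the controls read 3.26 and 5.33, the 1-week arrays 1.44, 1.32 and 1.39 and the 3-week arrays 2.65, 2.29 and 1.13. Every treated array lay below the controls of its genotype. The pair fell in wild-type cortex at 1 week, Cyp2d1 by 3.59 ± 0.89 (adjusted p = 0.0075) and Cyp2d5 by 3.34 ± 0.77 (adjusted p = 0.005), and both calls were lost without the first wild-type control (adjusted p = 0.11 and 0.087). In heterozygous cortex at 1 week Cyp2d5 fell by 2.79 ± 0.77 (adjusted p = 0.039), and Cyp2d1, reading nearly the same sequence, missed the threshold (adjusted p = 0.059). The Cyp2d5 call was lost in 5 of 16 fits that each left out 1 array, the second and the third heterozygous 1-week arrays and the second heterozygous control among them (adjusted p = 0.07, 0.10 and 0.38), and also without the first heterozygous 1-week array and the second wild-type 3-week array (adjusted p = 0.09 and 0.053). With normexp correction neither wild-type call was made (adjusted p = 0.055 and 0.053), whereas Cyp2d1 was called in heterozygous cortex at 1 week (-2.39, adjusted p = 0.028) and 3 weeks (-1.88, adjusted p = 0.04) and Cyp2d5 at 3 weeks (-1.88, adjusted p = 0.047). Cyp2d4, the remaining member of the subfamily, lay between -2.59 and -0.27 by its brighter probe and was called in no comparison. Its second probe read -2.27 and -2.37 in the heterozygous controls, 1 of them above background, and -4.16, -4.49 and -4.96 after 3 weeks, where no array was above background. Tested singly, that difference of Cyp2d4 had an adjusted p of 0.028.

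Cyp2f4, known from the lung for activating naphthalene and styrene, fell in heterozygous cortex at 1 week by 1.93 ± 0.50 (adjusted p = 0.029). It read -0.16 and -1.65 in the heterozygous controls, -2.44, -3.30 and -2.78 after 1 week, the last 2 not well above background, and -2.10, -1.76 and -0.96 after 3 weeks. The call of Cyp2f4 was lost without the first heterozygous control (-1.19, adjusted p = 0.34) or without the second or the third array of the group (adjusted p = 0.077 in each case). Raising dim readings to the detection limit also ended the call (-1.39, adjusted p = 0.06). Within slide 1 and slide 2 this change was -2.28 and -1.38. In wild-type cortex Cyp2f4 changed by -0.72 at 1 week (adjusted p = 0.31).

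Cyp3a9, the Cyp3a gene with detectable probes that came closest to a pattern, was too dim for the test. It was above background on 3 of 16 arrays, all from 1-week groups, at -0.65 and 0.25 in wild-type and -1.16 in heterozygous cortex. The other 13 arrays lay between -5.02 and -1.51. No control was above background, so that no size is given for the difference. Cyp2s1, a gene of epithelia, read 0.25 and -0.91 in the wild-type controls and 0.51, 1.29 and 0.70 after 3 weeks, a change of 1.17 that was not called (adjusted p = 0.087). Cyp2a1, a testosterone hydroxylase, and the olfactory gene Cyp2g1 were called in no comparison. The pseudogene Cyp3a85-ps was above background on 3 arrays and was not tested.

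The proximal tubule markers moved with these falls. The mean scaled signal over the 12 markers was 5.40 to 5.47 in the wild-type controls, 1.51 to 2.62 after 1 week and 3.88 to 4.23 after 3 weeks. In heterozygous cortex it was 5.19 to 5.36, then 3.07 to 4.06 and 3.15 to 4.28. Of the 12 markers 11 fell in wild-type cortex at 1 week, 3 at 3 weeks, and 4 in heterozygous cortex at each time, and 1 rose, in wild-type cortex at 3 weeks. Red blood cell markers fell as well, 5 of the 5 tested at 1 week in both genotypes, 3 in wild-type and 4 in heterozygous cortex at 3 weeks. Over all genes 14.3% and 5.51% were called lower in wild-type cortex at 1 and 3 weeks, and 3.2% and 6.52% in heterozygous cortex. In wild-type cortex at 3 weeks 8.71% were called higher. The part of either marker list in the P450 falls was not tested. In bulk tissue, fewer cells of a type and less RNA per cell cannot be told apart.

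**Figure D2:**
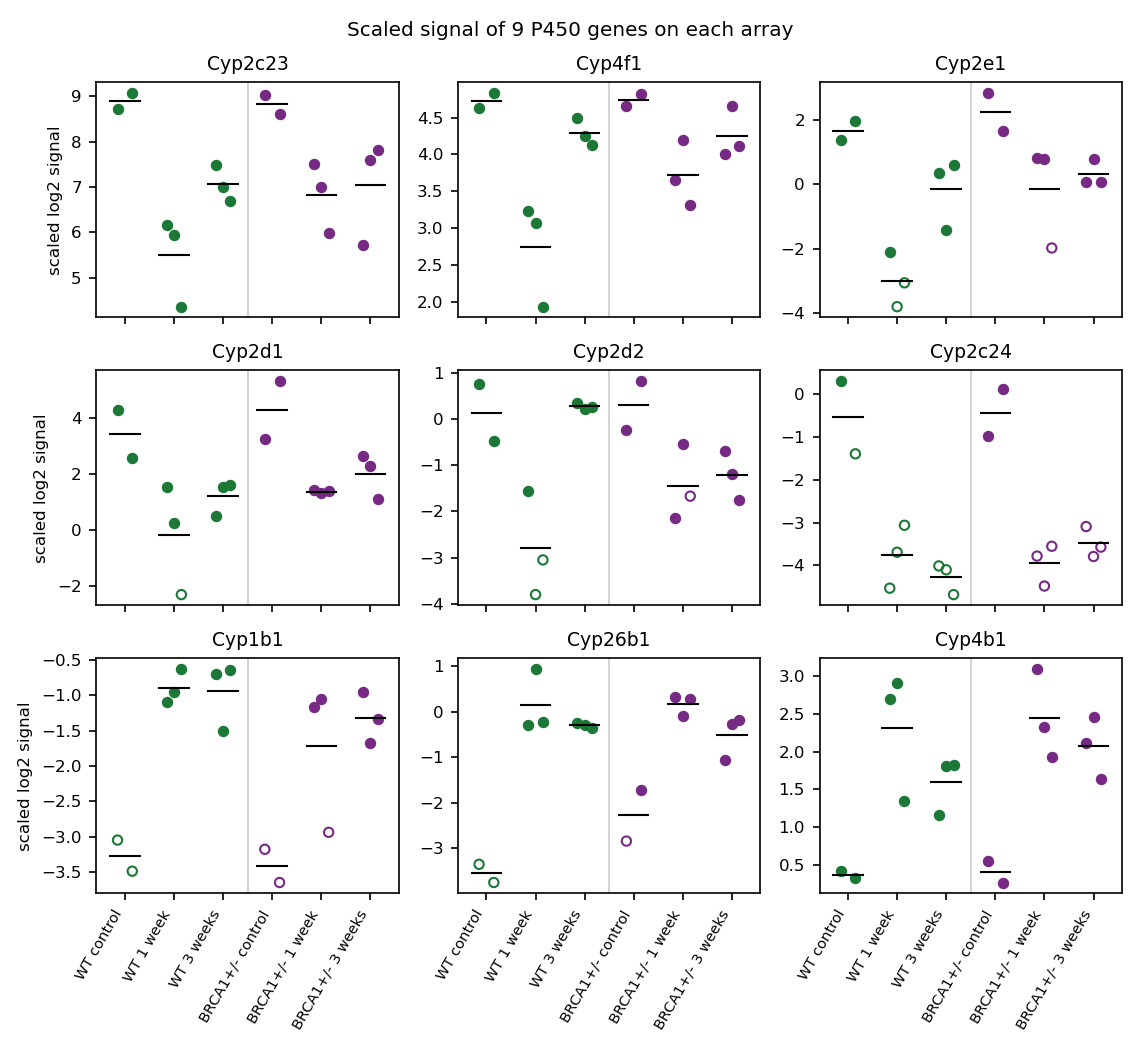
Scaled log2 signal of 9 P450 genes on each array (points; open circles are not well above background), with the mean of each group (bars), wild-type in green and BRCA1+/- in purple; each panel has its own axis, which does not start at 0. Cyp2c23, Cyp4f1, Cyp2e1 and Cyp2d2 are lowest in wild-type cortex at 1 week, while Cyp1b1, Cyp26b1 and Cyp4b1 are lowest in the controls.

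The higher calls came from a few genes of different roles. Cyp26b1, which clears all-trans retinoic acid, and Cyp1b1, an aryl hydrocarbon receptor target that oxidises aromatic hydrocarbons, oestradiol and retinoids outside the liver, were higher in all 4 comparisons with control. Both passed the detection filter through treated groups alone. Their rises are therefore a description, and the counts of called genes include both. The 300 bases around the start of each gene, from 250 before to 50 after it, are shown from RefSeq on GRCr8, since both rose while Cyp1a1, the other gene known for aryl hydrocarbon receptor control, was not above background on any array. That of Cyp1b1 lies at chr6:21094315-21094614 (plus strand) and that of Cyp26b1 at chr4:118616127-118616426 (minus strand). Capitals mark matches on either strand to GCGTG, the core of the aryl hydrocarbon receptor element, and to TGACNNNGC, the core of the antioxidant element.
Cyp1b1: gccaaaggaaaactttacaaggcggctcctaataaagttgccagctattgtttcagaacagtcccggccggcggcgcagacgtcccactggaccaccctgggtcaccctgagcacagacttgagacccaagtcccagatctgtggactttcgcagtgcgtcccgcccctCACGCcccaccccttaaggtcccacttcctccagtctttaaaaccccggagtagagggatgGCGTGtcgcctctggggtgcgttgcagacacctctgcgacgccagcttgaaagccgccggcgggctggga
Cyp26b1: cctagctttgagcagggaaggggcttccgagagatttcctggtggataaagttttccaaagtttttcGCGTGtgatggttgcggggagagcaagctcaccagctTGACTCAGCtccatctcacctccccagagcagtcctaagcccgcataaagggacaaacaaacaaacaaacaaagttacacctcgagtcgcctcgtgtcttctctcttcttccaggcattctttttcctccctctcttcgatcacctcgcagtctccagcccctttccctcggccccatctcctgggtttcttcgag
The promoter of Cyp1b1 held 2 matches to GCGTG, and that of Cyp26b1 held 1 match to each motif, which do not overlap. GCGTG occurred in 9 of the 32 promoters listed for member genes (28.1%) and in 29.7% of 33469 promoters, and TGACNNNGC in 4 of 32 (12.5%) and in 12.1%. The shares among P450 promoters were thus near those of all promoters.

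Cyp26b1 was not well above background in the wild-type controls, at -3.35 and -3.75, and read -0.29, 0.94 and -0.22 after 1 week and -0.25, -0.29 and -0.36 after 3 weeks. All 6 treated arrays lay above both controls. It was at least 3.42-fold higher at 1 week (adjusted p = 2.2e-05) and at least 2.52-fold higher at 3 weeks (adjusted p = 0.00022). Among heterozygous rats the readings were -2.84, not well above background, and -1.71 in the controls, 0.33, -0.10 and 0.29 after 1 week and -1.06, -0.26 and -0.18 after 3 weeks. The groups did not overlap, and Cyp26b1 rose by 2.45 ± 0.41 at 1 week (adjusted p = 0.0024) and by 1.77 ± 0.41 at 3 weeks (adjusted p = 0.01). Without the first heterozygous control both heterozygous calls were lost (adjusted p = 0.057 and 0.16). With normexp correction the changes of Cyp26b1 shrank to 0.66 and 0.76 at 1 week in wild-type and heterozygous cortex, still called (adjusted p = 0.034 and 0.042), and to 0.44 and 0.46 at 3 weeks, no longer called (adjusted p = 0.16 and 0.12). The wild-type sizes under normexp lie below the bounds given above, and the normexp offset shrinks the changes of dim probes. Within slide 1 and slide 2 its wild-type 1-week change was 3.49 and 4.29. Cyp26c1, which also clears retinoic acid, was read by 2 probes, above background on 4 and 5 arrays, and was not tested as a gene.

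Cyp1b1 was not well above background in any of the 4 controls, which read -3.05 and -3.49 in wild-type and -3.18 and -3.65 in heterozygous cortex. In wild-type cortex it read -1.09, -0.96 and -0.63 after 1 week and -0.70, -1.50 and -0.64 after 3 weeks. Heterozygous arrays read -1.17, -1.05 and -2.94 after 1 week, the last not well above background, and -0.96, -1.67 and -1.34 after 3 weeks. Every treated array lay above the controls of its genotype. Cyp1b1 was at least 1.67-fold higher in wild-type cortex at 1 week (adjusted p = 0.0018) and at least 1.61-fold at 3 weeks (adjusted p = 0.0046). The heterozygous bounds were at least 2.07-fold higher at 1 week (adjusted p = 0.04) and at least 2.72-fold at 3 weeks (adjusted p = 0.0092).

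With normexp background correction, whose offset shrinks the changes of dim probes, the 4 changes of Cyp1b1 were between 0.09 and 0.22 and none was called. When dim readings were raised to the detection limit, the wild-type changes were 0.74 and 0.69 and were not called (adjusted p = 0.14 and 0.21). The wild-type 3-week call of Cyp1b1 was also lost without the second wild-type control (adjusted p = 0.066) and the heterozygous 3-week call without the second heterozygous control (adjusted p = 0.094). Its heterozygous 1-week call was lost in 7 of the 16 fits that left out 1 array, most of all without a heterozygous control (adjusted p = 0.13 and 0.26). The others were without the first or second array of the group (adjusted p = 0.12 and 0.11), without the first or the third wild-type 3-week array (0.05 and 0.051, the former just above the threshold) and without the third heterozygous 3-week array (0.054). The other 2 probes of Cyp1b1, each above background on 3 arrays, were called in none of the 4 comparisons.

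Cyp4b1, which oxidises fatty acids and activates plant furans in the lung, rose in 3 of the 4 comparisons. It read 0.42 and 0.33 in the wild-type controls, 2.69, 2.90 and 1.35 after 1 week and 1.16, 1.81 and 1.82 after 3 weeks. Heterozygous arrays gave 0.56 and 0.27 in the controls, 3.09, 2.32 and 1.93 after 1 week and 2.11, 2.46 and 1.64 after 3 weeks. All 12 treated arrays were above the 4 controls. Cyp4b1 rose by 1.94 ± 0.44 in wild-type cortex at 1 week (adjusted p = 0.0045), by 2.03 ± 0.44 in heterozygous cortex at 1 week (adjusted p = 0.012) and by 1.66 ± 0.44 at 3 weeks (adjusted p = 0.021), while the wild-type 3-week change of 1.23 was not called (adjusted p = 0.076). The heterozygous 1-week call was lost without either heterozygous control (adjusted p = 0.068 and 0.11), and the 3-week call without either control or the second array of the group (adjusted p = 0.086, 0.15 and 0.066). Without the third wild-type 1-week array the wild-type 3-week change of Cyp4b1 was called (adjusted p = 0.02). With normexp correction none of the calls was made (adjusted p = 0.07, 0.087 and 0.098). A second probe of Cyp4b1 was dimmer and above background on 10 arrays. It read -1.62 and -1.84 in the wild-type controls, neither above background, -0.75, -0.61 and -0.20 after 1 week and -2.27, -1.82 and -1.06 after 3 weeks, so that its 1-week arrays lay above the controls and its 3-week arrays overlapped them.

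Markers of fibroblasts and macrophages were higher in the groups where these genes were high. The mean over 4 fibroblast markers was 0.97 to 1.06 in the wild-type controls, 2.29 to 3.36 after 1 week and 2.57 to 3.27 after 3 weeks, and in heterozygous cortex 1.34 to 1.52, 2.43 to 3.14 and 2.91 to 3.49. Of these 4 markers 3 rose in wild-type cortex at each time, 2 in heterozygous cortex at 1 week and 4 at 3 weeks. Of 6 macrophage markers 5 and 4 rose in wild-type cortex and 4 and 5 in heterozygous cortex, at 1 and 3 weeks. Over all genes 12.8% and 8.71% were called higher in wild-type cortex at 1 and 3 weeks, and 4.27% and 9.37% in heterozygous cortex. The part of these markers in the rise of Cyp1b1, Cyp26b1 and Cyp4b1 was not tested.

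Sterol and vitamin D enzymes held 1 gene that rose late. Cyp27a1, the mitochondrial sterol 27-hydroxylase of bile acid synthesis, read 0.97 and 0.64 in the wild-type controls, 1.32, 1.26 and 0.13 after 1 week and 2.06, 1.95 and 1.94 after 3 weeks. The heterozygous controls read 0.65 and 1.00, followed by 1.45, 1.29 and 1.36, then 1.81, 2.21 and 2.34. The 3-week arrays were the highest in both genotypes. Cyp27a1 rose by 1.17 ± 0.32 at 3 weeks in wild-type cortex (adjusted p = 0.026) and by 1.30 ± 0.32 in heterozygous cortex (adjusted p = 0.016), and its 1-week changes of 0.10 and 0.54 were not called (adjusted p = 0.86 and 0.35). The wild-type call of Cyp27a1 was lost without any 1 of the 5 arrays compared (adjusted p from 0.058 to 0.20), and the heterozygous call without either control or the third 3-week array (adjusted p from 0.057 to 0.14). Within slide 1 and slide 2 the 3-week changes were 1.36 and 0.97 in wild-type and 1.69 and 1.01 in heterozygous cortex. Cyp7b1, an oxysterol 7-alpha-hydroxylase, read -2.05 and -1.34 in the wild-type controls, the first not well above background, and -0.82, -0.66 and -0.67 after 3 weeks. Its groups did not overlap, and it changed by 0.98 at 3 weeks in wild-type cortex (adjusted p = 0.087), while Cyp39a1, which acts on another oxysterol, changed by -0.99 at 1 week (adjusted p = 0.092). Cyp2r1, the vitamin D 25-hydroxylase, was above background on 1 array, a heterozygous control, at -1.71.

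Steroid hormone genes were detected without a call. Cyp11a1, which makes pregnenolone from cholesterol, read 0.59 and 0.35 in the wild-type controls, 0.42, 2.71 and 2.86 after 1 week and 0.77, 0.87 and 0.28 after 3 weeks. The heterozygous controls gave 1.65 and 1.09, followed by 1.68, 0.36 and 3.57, then 0.68, 0.16 and 0.66. The 3 highest readings came from 1-week arrays, 2 of them wild-type and 1 heterozygous. All these readings are of 1 probe. Another probe of Cyp11a1 lay between -5.02 and -1.65 and was above background on 0 of 16 arrays. The wild-type 1-week change of Cyp11a1 was 1.52 ± 0.76 (adjusted p = 0.16), and without the first array of that group it was 2.31 (adjusted p = 0.024). Cyp21a1, the steroid 21-hydroxylase, lay between 1.40 and 3.80 on all 16 arrays, with its highest reading on the third wild-type 1-week array, and was called in no comparison. Of 6 adrenal cortex markers Star, Mc2r, Nr5a1 and Akr1b7 did not pass the filter. Hsd3b1 was at least 2.89-fold higher (adjusted p = 0.03) and Hsd3b2 at least 1.84-fold lower (adjusted p = 0.042) in wild-type cortex at 1 week. Both are named because they alone of the list were tested, and the part of adrenal tissue in the Cyp11a1 readings was not tested. Cyp11b2, aldosterone synthase, and Cyp17a1 were above background on 3 and 2 arrays and were not tested.

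Among genes outside these roles, Cyp20a1, a P450 of unknown substrate, Cyp2ab1 and Cyp2t1 were called in no comparison. Cyp20a1 lay between -1.01 and 0.69 on all 16 arrays, with its highest reading on the third wild-type 1-week array and its lowest on the third heterozygous 1-week array. Over the 3 genes the median log2 change in wild-type cortex at 1 week was 0.62.

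**Figure D3:**
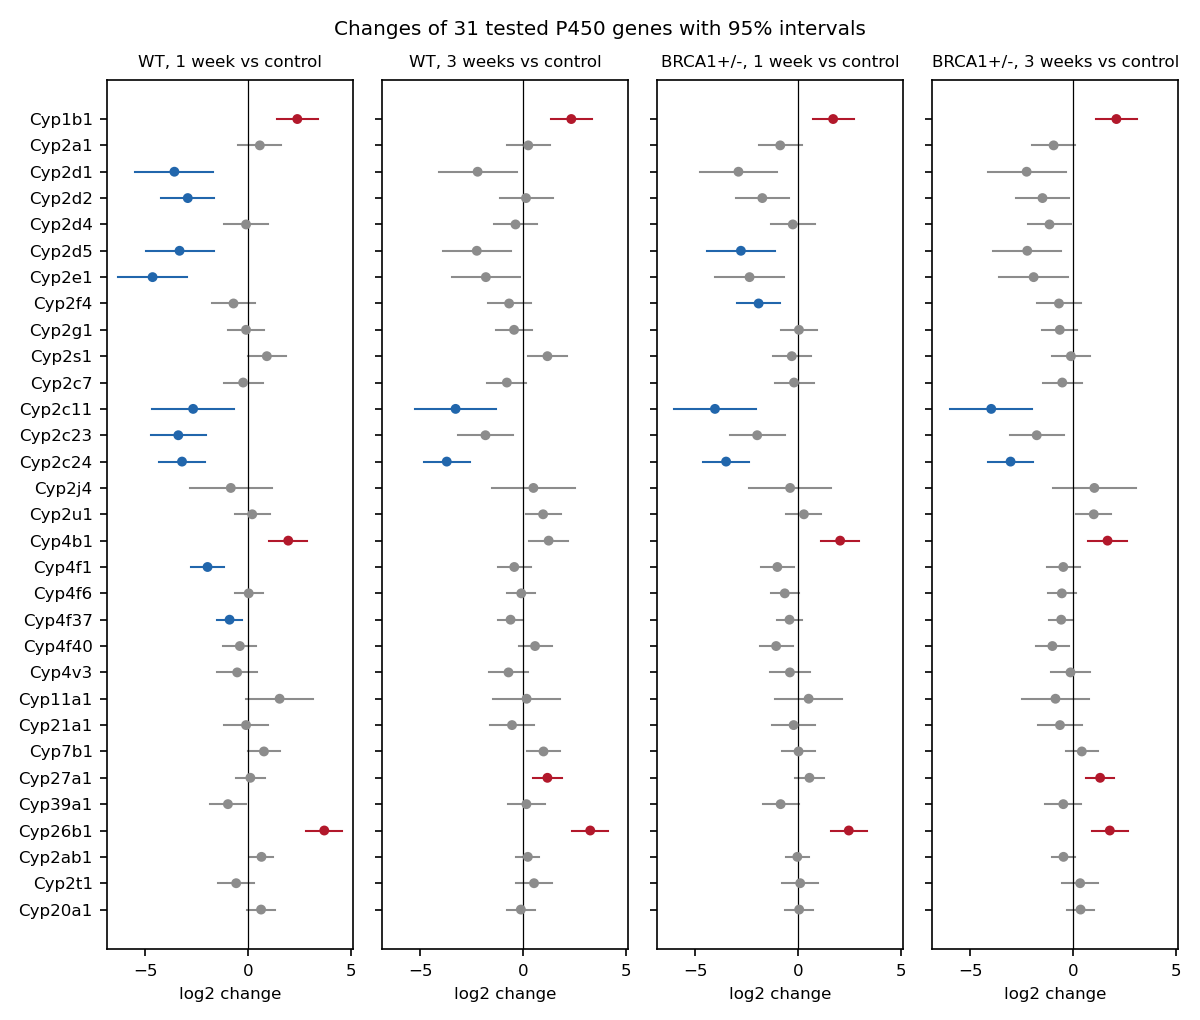
Log2 change against the control of the same genotype for the 31 tested P450 genes in the 4 comparisons (points) with 95% intervals (bars), red where called higher and blue where called lower at an adjusted p under 0.05. Cyp1b1 and Cyp26b1 are red and Cyp2c11 and Cyp2c24 are blue in all 4 panels, and 9 genes are blue in wild-type cortex at 1 week. Of these 4 genes, Cyp1b1 and Cyp26b1 passed the detection filter through treated groups alone, and Cyp2c11 and Cyp2c24 through the heterozygous controls alone. Fitted changes against a group not above background have no exact size.

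The direct comparison of 3 weeks with 1 week asked which of these genes differed between the shorter and the longer course. In wild-type cortex 4 of 31 P450 genes (12.9%) were called, all 4 higher at 3 weeks, against 8.31% of all genes, of which 5.54% were higher and 2.78% lower. Cyp2d2 was higher by 3.08 ± 0.54 (adjusted p = 0.0035), Cyp2e1 by 2.83 ± 0.70 (adjusted p = 0.022), Cyp4f1 by 1.54 ± 0.33 (adjusted p = 0.01) and Cyp27a1 by 1.08 ± 0.29 (adjusted p = 0.033). With normexp correction the calls of Cyp2d2 and Cyp2e1 were lost (0.65, adjusted p = 0.064, and 0.69, adjusted p = 0.24), and that of Cyp2e1 also when dim readings were raised to the detection limit (1.67, adjusted p = 0.10). At 1 week 2 of the 3 wild-type readings of either gene were not well above background. For each of the 4 genes the values given above show that the 3-week arrays did not overlap the 1-week arrays. Cyp2c23 was higher by 1.56 ± 0.56 without passing the test (adjusted p = 0.10). The proximal tubule list moved the same way, with 6 of 12 markers higher at 3 weeks, beside the 5.54% of all genes. Within slide 1 the comparison called 1 gene and within slide 2 it called 0. The count was 2 without the third wild-type 1-week array or without the first or the third 3-week array. The Cyp2e1 call was lost without the second or the third 1-week array or the first or the third 3-week array (adjusted p from 0.06 to 0.094), and the Cyp27a1 call without the third 1-week array or any 3-week array (adjusted p from 0.057 to 0.097).

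In heterozygous cortex 0 of 31 P450 genes differed between 3 weeks and 1 week by limma, where 0.306% of all genes were called, and 2 had an unadjusted p under 0.05. These were Cyp2f4, at 1.23 (95% interval 0.29 to 2.18, adjusted p = 0.31), and Cyp27a1, at 0.75 (95% interval 0.14 to 1.37, adjusted p = 0.35). The heterozygous differences of Cyp2d2, Cyp2e1 and Cyp4f1 were 0.25, 0.44 and 0.53, with intervals of -0.91 to 1.40, -1.04 to 1.93 and -0.17 to 1.23.

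Comparisons of the genotypes asked whether the P450 genes, or their response to Fe-NTA, differed in BRCA1+/- rats. In control cortex limma called 0 of 31 P450 genes and 0.0% of all genes, and 2 P450 genes had an unadjusted p under 0.05. At 1 week it called 0 of 31 P450 genes against 0.562% of all genes (0.493% higher and 0.0686% lower in heterozygous cortex), with 8 at an unadjusted p under 0.05, and at 3 weeks 0 of 31 against 0.0%, with 3. The interaction of genotype with treatment gave 0 of 31 and 0.0% of all genes at both times, with 1 and 2 P450 genes at an unadjusted p under 0.05.

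Cyp2e1 came closest to a genotype difference. After 1 week its heterozygous arrays, at 0.80, 0.77 and -1.98, all read above the wild-type arrays, at -2.11, -3.80 and -3.06, and 3 of these 6 arrays were not well above background. The difference was 2.85 ± 0.70, with a 95% interval of 1.37 to 4.34 (adjusted p = 0.076). Without the third heterozygous 1-week array it was 3.77 (adjusted p = 0.0078), the one fit in which a P450 gene was called between genotypes. The interaction for Cyp2e1 was 2.28, with an interval of -0.06 to 4.63 (adjusted p = 0.66). Of the 12 proximal tubule markers 2 were also called higher in heterozygous than in wild-type cortex at 1 week, against 0.493% of all genes. The part of these markers in the Cyp2e1 difference was not tested. For Cyp2c23 the interaction at 1 week was 1.40, with an interval of -0.47 to 3.28, and for Cyp4f1 it was 0.96, with an interval of -0.15 to 2.07.

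The interaction of Cyp26b1 was -1.24 at 1 week (interval -2.47 to -0.01, adjusted p = 0.65) and -1.47 at 3 weeks (interval -2.70 to -0.24, adjusted p = 0.98), and its heterozygous controls read 1.27 higher than the wild-type controls (interval 0.32 to 2.23, adjusted p = 0.90). Of those 4 control readings 3 were not well above background. For Cyp4b1 the interactions were 0.10 and 0.43, with intervals of -1.23 to 1.42 and -0.90 to 1.76. None of these differences passed the test, and the intervals leave room for genotype differences of more than 2-fold in most of these genes.

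**Figure D4:**
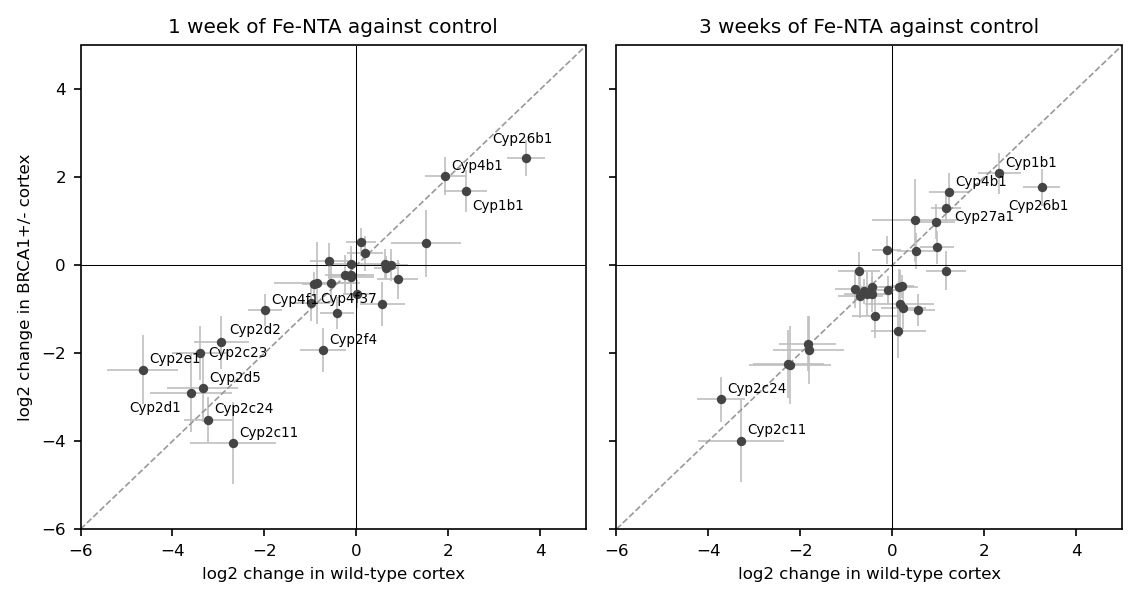
Log2 change of the 31 tested P450 genes in wild-type (horizontal) and BRCA1+/- cortex (vertical), with standard errors, at 1 and 3 weeks; genes called in either genotype are named and the dashed line marks equal changes. At 1 week Cyp2e1 lies at -4.65 in wild-type and -2.37 in BRCA1+/- cortex, and Cyp4b1 at 1.94 and 2.03; fitted changes against a group not above background, such as that of Cyp26b1 in wild-type cortex, have no exact size.

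Electron partners of P450 enzymes and genes of heme supply made a list of 10, of which 9 passed the filter. In wild-type cortex at 1 week 4 of 9 fell and 0 rose, where 14.3% of all genes were called lower, with a median log2 change of -0.49 against -0.02 over all genes. At 3 weeks 2 fell, and in heterozygous cortex 1 and 2 fell at 1 and 3 weeks, with 0 rises in each. Over all genes 5.51% were called lower in wild-type cortex at 3 weeks, and 3.2% and 6.52% in heterozygous cortex at 1 and 3 weeks. Pgrmc1, a heme-binding protein that associates with P450 enzymes, fell by 3.07 ± 0.32 (adjusted p = 1.5e-05), and Cyb5a, cytochrome b5, fell by 1.76 ± 0.33 (adjusted p = 0.0011). Pgrmc1 also fell in the other 3 comparisons, by 2.29 in wild-type cortex at 3 weeks and by 1.51 and 1.72 in heterozygous cortex at 1 and 3 weeks. Por, the P450 oxidoreductase, which is named for its role after its values were seen, fell by 1.51 ± 0.43 in wild-type cortex at 1 week (adjusted p = 0.017) and was not called elsewhere.

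Of 17 receptors and factors that control P450 genes 13 were tested. In wild-type cortex 5 of 13 fell and 0 rose at 1 week, against the same 14.3% of all genes. There 5 were higher at 3 weeks than at 1 week, against 5.54% of all genes. Against control 1 fell and 1 rose in wild-type cortex at 3 weeks, where 5.51% of all genes were called lower and 8.71% higher. In heterozygous cortex 0 were called at 1 week, against 7.47% of all genes, and 1 fell at 3 weeks, against 6.52% called lower. Ppara, the receptor for fatty acids, fell by 4.61 ± 0.51 at 1 week (adjusted p = 2.2e-05), and Nr1h3, the oxysterol receptor LXR alpha, by 2.07 ± 0.34 (adjusted p = 0.00045). Ppara was higher by 2.95 ± 0.45 at 3 weeks than at 1 week (adjusted p = 0.002). Ahr, the aryl hydrocarbon receptor, did not pass the filter.

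Other enzymes of drug and solvent metabolism were called lower, never higher, in the 4 comparisons with control. Of their 21 genes 18 were tested, and in wild-type cortex at 1 week 12 of 18 fell and 0 rose, beside 14.3% of all genes called lower, with a median log2 change of -1.83 against -0.02 over all genes. The flavin monooxygenases Fmo1 and Fmo4, which oxidise nitrogen and sulphur in drugs, fell by 3.75 ± 0.38 (adjusted p = 1.3e-05) and by 3.33 ± 0.40 (adjusted p = 4.2e-05). In this list 9 fell in wild-type cortex at 3 weeks, 4 in heterozygous cortex at 1 week and 8 at 3 weeks. Over all genes 5.51%, 3.2% and 6.52% were called lower in these comparisons. In wild-type cortex 7 were higher at 3 weeks than at 1 week, against 5.54% of all genes. Of 11 lipid mediator enzymes 6 were tested. In wild-type cortex at 1 week 2 of 6 rose, where 12.8% of all genes were called higher. These 2 were thromboxane synthase Tbxas1, at least 2.88-fold (adjusted p = 0.015), and prostaglandin E synthase Ptges, by 1.11 ± 0.35 (adjusted p = 0.027). At 3 weeks 2 rose in wild-type cortex, against 8.71% of all genes. In heterozygous cortex 1 fell and 0 rose at 1 week, and 2 rose and 1 fell at 3 weeks. Over all genes 4.27% and 9.37% were called higher there, and 3.2% and 6.52% lower.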

How the data were processed

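RNA of rat kidney cortex was hybridised in 1 colour (Cy3) to 16 Agilent arrays, 1 per sample. The deposited scanner files hold the authors' processed signal as intensity for each spot, with flags, as other values, for spots well above background. They were made with Agilent Feature Extraction 10.7, per the submitters' processing notes. A deposited value table by the authors gives log2 values, which match the scanner signals after scaling to the 75th percentile, with a median difference of at most 0.01, and served as an alternative. Its column medians ran from -2.86 to -2.16.

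Control and outlier spots were left out, spots of a probe averaged, log2 taken and the 75th percentile of each array over 45598 probes subtracted. Probes that some group read well above background on each of its arrays were kept (20452 of 45483), with 1 probe per gene, the brightest on average (for P450 genes, the brightest member probe). Gene names came from the files, and 21229 probes were named through their own accession in RefSeq and 2539 through another probe of the same name, while 21830 kept the file's name. All 6 groups were fitted in limma 3.58.1 (R 4.3.3, Python 3.11.15) as group means over a common spread (10 residual degrees of freedom, median residual SD 0.395), two-sided, with Benjamini-Hochberg adjustment over 16024 genes and calls at an adjusted p under 0.05. The number of arrays limits the precision.

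Where a gene was not well above background on any array of a group, a change is given as a bound ("at least"), which sets the bright group's mean against the detection limit of the dim group (per array, the lowest signal well above background or the probe's own, whichever is higher). The adjusted p printed beside a bound is that of the fitted log2 change, which uses the dim readings as they are, and does not test the bound. Probe coordinates are those of the files (rn4), and no exon or UTR position was assigned. Promoters came from RefSeq on GRCr8, where 31 of the 38 member genes matched, 1 of them with 2 promoters.

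The P450 members, their roles, the partner and marker lists and the rule for named genes were chosen with earlier results of these data known. The rule allowed all P450 genes to be named by role, with array values for called genes and for a list of well-known ones, and named the 2 partner genes per list with the smallest p in wild-type cortex at 1 week. Alternatives were normexp background correction with an offset of 50, quantile normalization, the authors' table and other filters on dim probes. Further alternatives were dim readings raised to the detection limit, only the groups compared, the slide or replicate number as a block and leaving out each array. Fits within each slide were added after seeing the data. The fit was tested on simulated data.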

Additional observations from a re-analysis of the deposited data

Results flagged for a closer look

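Of the 10 probes with P450 names that were above background on a single array, 9 were above it on a treated array and read higher there than on any control. The third wild-type 3-week array, the one with the largest share of probes above background, held 6 of them. There Cyp11b3 read -2.56 against a highest control of -3.15, Cyp2a2 -2.65 against -3.02 and a probe of Cyp2c7 other than its member probe -2.62 against -3.37. On the same array Cyp2j16 read -2.92 against -3.31, Cyp4f39 -1.67 against -3.21 and Cyp4f5 -2.73 against -2.90.

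The first wild-type 3-week array gave Cyp2b15, a gene of the phenobarbital-inducible subfamily, a reading of 7.07, where the highest control read -3.09. A second probe of Cyp2b15 was above background on another array alone, the first heterozygous 1-week array, at -2.89 against a highest control of -3.29. On that array Cyp2d3 read -2.79 against -3.23. These are single readings without replication, and the cause was not tested.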

How the results depend on the processing

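Counts of P450 genes are given in the order wild-type 1 week, wild-type 3 weeks, heterozygous 1 week and heterozygous 3 weeks against control, then wild-type 3 weeks against 1 week, where 12, 5, 7, 6 and 4 were called. No change of a named gene reversed its call. Quantile normalization gave 11, 5, 5, 6 and 4, the authors' table the same counts as the main setting, and the slide as a block 12, 6, 8, 7 and 4. Normexp background correction gave 4, 2, 3, 4 and 2. Without a filter on dim probes the counts were 10, 3, 4, 4 and 2, and when dim readings were raised to the detection limit they were 9, 3, 8, 10 and 3. Fitting only the groups compared gave 10, 10, 8, 11 and 2. Within slide 1 they were 5, 1, 1, 1 and 1 and within slide 2 they were 5, 0, 2, 4 and 0, with fewer samples. The cause of the other shifts was not tested.

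Leaving out 1 array at a time gave 8 to 14, 3 to 12, 3 to 10, 2 to 11 and 2 to 6. Heterozygous against wild-type cortex at 1 week gave 0 to 1, and the other genotype, interaction and heterozygous time comparisons gave 0 in every fit.

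Samples with the same replicate number did not deviate together as a set (median r = 0.03 over 36 pairs, from -0.34 to 0.44, against -0.02 over 70 other pairs). No pairing by number was seen, but deviations from means of so few arrays cannot exclude one. With the replicate number as a block the counts were 12, 7, 6, 6 and 4. The array signal limits dim genes, since 13 of the 38 member genes were above background on at most 11 arrays.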
